A study of Mus musculus with 12 samples.

Results

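The genes described here switch off G protein-coupled receptors, the receptors through which B cells sense chemokines and lipids, and all 24 probe sets of 10 such genes were followed across 4 Foxo1 genotypes of a mouse lymphoma cell line. They were 2 receptor kinases (Grk3 and Grk6), the arrestin gene Arrb2, and 7 genes of the regulator of G protein signalling family (Rgs1, Rgs2, Rgs3, Rgs10, Rgs13, Rgs16 and Rgs19). The members were found by gene symbol in the platform annotation, among 45037 probe sets and 18193 genes in all. The 10 genes were chosen by function and from earlier results of these same arrays, namely differences in level between the genotypes. The differences below are therefore a description, and an adjusted p places a probe set within the fit over all probe sets without adding independent support.

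An active receptor turns on a G protein by loading its alpha subunit with GTP. Kinases of the GRK family phosphorylate the active receptor, and an arrestin then binds it, which blocks further coupling and draws the receptor into the cell. RGS proteins act one step later and speed up the hydrolysis of GTP by the alpha subunit, which ends the signal. In germinal centers, where B cells move between zones along chemokine gradients, Rgs1 and Rgs13 are known as brakes on chemokine signalling, and Grk3 is known in B cells as a kinase for the chemokine receptor Cxcr4.

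RNA was read on 12 Affymetrix arrays from BL#19, a murine BL (Burkitt lymphoma) line whose Foxo1 alleles were cut with CRISPR/Cas9. The transcription factor Foxo1 is one that AKT phosphorylation sends out of the nucleus, and the T24P substitution changes a residue that AKT phosphorylates. The genotypes, with 3 arrays each, were wt-/mt- (knockout of wild-type and of T24P Foxo1), wt-/mt+ (knockout of wild-type Foxo1, T24P Foxo1 kept), wt+/mt- (knockout of T24P Foxo1, wild-type Foxo1 kept) and wt+/mt+ (both kept), so every control array also carried T24P Foxo1. All derive from 1 cell line. Whether the 3 arrays of a genotype stand for different clones or cultures is not given in the labels, and the p-values therefore reflect array-to-array spread that may be technical. The sample descriptions call the RNA that of germinal center B cells. On every array the 6 B cell markers with a named probe set exceeded the median of all probe sets, 5 or 6 of 6 germinal center markers did so too, and so did 2 to 4 of 7 myeloid markers. Of those 7, Csf1r and Adgre1 exceeded it on all 12 arrays, Cd68 did on every wt-/mt- and wt+/mt- array and on 2 of wt+/mt+, and Lyz2, Cd14 and Itgam did on none. On every array 3 of 5 T cell and 4 of 5 plasma cell markers also exceeded the median. So did 0 to 3 of 5 stromal and endothelial markers and 0 of 2 erythroid ones. Passing the median thus does not by itself show a cell type. The leading Foxo1 probe set, the one with the highest mean, read 10.23, 9.39 and 10.34 in wt-/mt-, between 11.16 and 12.10 in the 6 single-knockout arrays, and 11.56, 11.63 and 11.72 in wt+/mt+ (log2). It was lower in wt-/mt- than in wt+/mt+ by a difference of -1.65 (SE 0.23, limma adjusted p = 0.00142). The array medians lay between 6.08 and 6.25, and the actin 3' to 5' ratio, a sign of RNA integrity, stood at 2.17 and 1.71 (log2) on the first and second of the wt+/mt- arrays (replicates 1 and 2), against 1.06 to 1.29 on the other 10 arrays. The wt-/mt- arrays were the most spread, with a median range over probe sets of 0.35, against 0.20 in wt+/mt+.

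Values are log2 levels of a probe set, which show change between arrays and not the relative abundance of different genes. Each gene is led by its brightest probe set, differences are the first genotype minus the second with limma's standard error (SE), and "called" means an adjusted p under 0.05 over all 45037 probe sets. In wt-/mt- against wt+/mt+, 6 of the 24 probe sets were called higher, where 7.91% of all probe sets were, and 5 were called lower, where 6.26% were. The higher ones belonged to Grk6, Arrb2, Rgs3 and Rgs10, and the lower ones to Rgs2, to 1 further probe set of Grk3 and to 1 of Rgs19. The median difference of the 10 leading probe sets was -0.02, against 0.06 over all probe sets, so the genes did not move one way together. In wt-/mt+ against wt+/mt+, 0 of 24 were called in either direction by limma, where 0% of all probe sets were called higher and 0.00222% lower. At an unadjusted limma p under 0.05 there were 0 of the 24, where all 45037 probe sets had 1735.

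**Figure D1:**
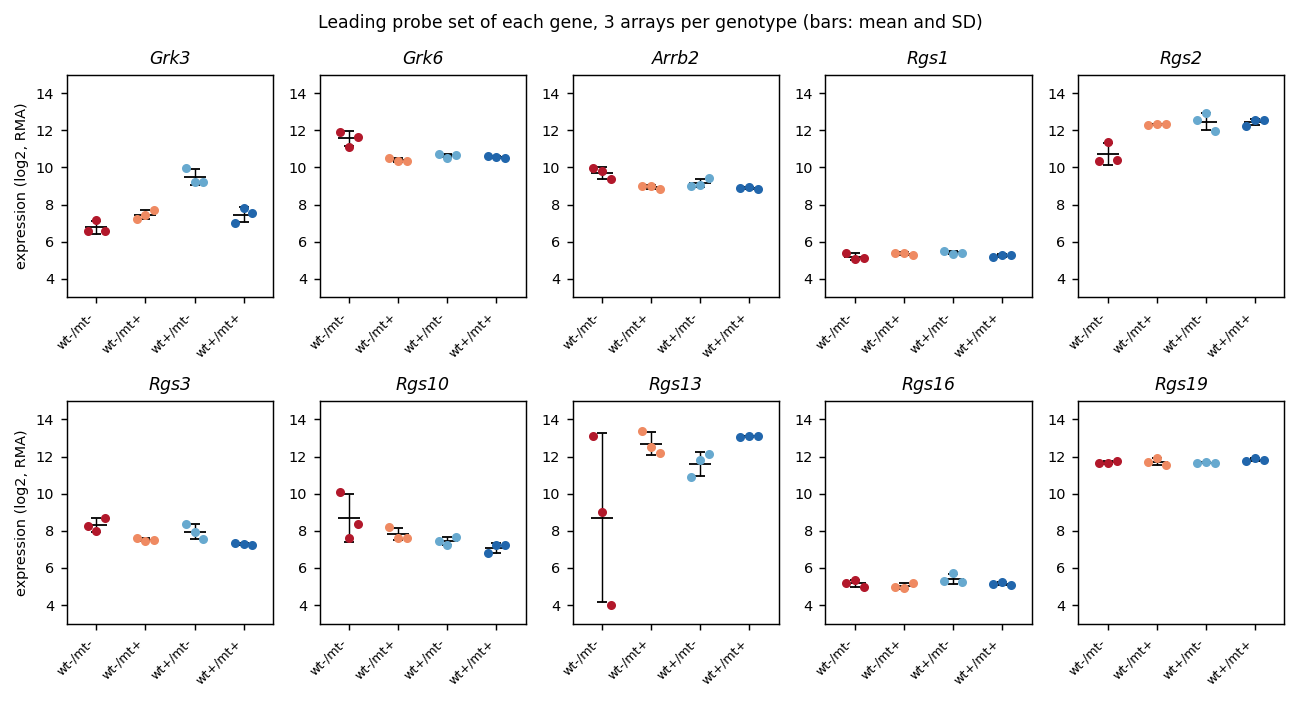
Log2 expression of the leading probe set of each of the 10 genes (vertical axis) in wt-/mt-, wt-/mt+, wt+/mt- and wt+/mt+ (horizontal axis), with points for the 3 arrays and bars for mean and SD. Grk3 is highest in wt+/mt-, Grk6 and Arrb2 are highest in wt-/mt-, Rgs2 is lowest in wt-/mt-, and the 3 wt-/mt- arrays of Rgs13 spread from 4.00 to 13.13.

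Grk3, the kinase also listed as Adrbk2, was highest where only the wild-type allele was left. Its leading probe set read 6.56, 7.18 and 6.57 in wt-/mt-, 7.21, 7.45 and 7.68 in wt-/mt+, 9.97, 9.23 and 9.20 in wt+/mt-, and 7.02, 7.81 and 7.53 in wt+/mt+. The wt+/mt- arrays lay above all 9 others, those of wt-/mt+ and wt+/mt+ covered the same range, and the wt-/mt- arrays lay at the low end, overlapping with wt+/mt+ through replicate 2. In order, the means were 9.47 ± 0.44 for wt+/mt-, 7.45 ± 0.24 for wt-/mt+, 7.45 ± 0.40 for wt+/mt+ and 6.77 ± 0.35 for wt-/mt- (SD, n = 3 each). The middle places did not differ beyond their spread, with a difference of 0.00 for wt-/mt+ against wt+/mt+ and a 95% interval from -0.57 to 0.56.

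Against wt+/mt+, Grk3 rose in wt+/mt- by 2.02 on the log2 scale (SE 0.26, limma adjusted p = 0.0223), a 4.05-fold difference. This comparison called 0.333% of all probe sets higher and 0.158% lower, and 2 of the 24 probe sets higher, both of Grk3, and 0 lower. At an unadjusted p under 0.05 there were 6 of the 24, where all 45037 probe sets had 7617, and limma with 1 weight per genotype called 6, where it called 1759 in all. In wt-/mt+ against wt+/mt-, the comparison of the mutant allele alone with the wild-type allele alone, Grk3 fell by 2.02 (SE 0.26, adjusted p = 0.0319). There 0 of 24 probe sets were called higher and 2 lower, both of Grk3, against 0.0289% and 0.0266% of all probe sets, while 7 had an unadjusted p under 0.05 (6885 of all 45037) and weights gave 3 calls (1325 of all). These comparisons share the wt+/mt- arrays. In wt-/mt- against wt+/mt-, Grk3 fell by 2.70 (SE 0.26, adjusted p = 0.000295). The differences of wt-/mt- from the other genotypes, -0.68 against wt+/mt+ (adjusted p = 0.0971) and -0.68 against wt-/mt+ (adjusted p = 0.116), were not called, but without wt-/mt- replicate 2 they were -0.89 and -0.88 and both were (adjusted p = 0.0403 and 0.0463).

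On the leading probe set, loss of the T24P allele thus went with a difference in Grk3 of 2.02 where wild-type Foxo1 was present. Where wild-type Foxo1 was absent, the difference was -0.68 and not called. The test of that contrast, the interaction of both losses, gave -2.70 (SE 0.37, adjusted p = 0.00667). The interaction called 0 of 24 probe sets higher and 2 lower, both of Grk3, against 0.282% and 0.797% of all probe sets. Of the 24, 12 had an unadjusted p under 0.05 (5518 of all 45037), and limma with 1 weight per genotype called 8 (704 of all).

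The other 2 Grk3 probe sets were highest in wt+/mt- too. The second set read 4.35, 4.70 and 4.60 in wt-/mt-, 5.91, 6.18 and 6.17 in wt-/mt+, 9.79, 8.90 and 8.19 in wt+/mt-, and 5.57, 6.63 and 6.25 in wt+/mt+. On this set the 3 wt-/mt- arrays lay below all 9 others, and the difference against wt+/mt+ was called at -1.60 (SE 0.35, adjusted p = 0.0131), though not with 1 weight per genotype (adjusted p = 0.0510). The difference against wt-/mt+ was likewise called at -1.54 (SE 0.35, limma adjusted p = 0.0176), though not with weights (adjusted p = 0.0611). The interaction on this set was -4.35 (SE 0.49, limma adjusted p = 0.00255). The dim remaining set read 5.27, 5.10 and 5.15 in wt-/mt-, 5.31, 5.22 and 5.26 in wt-/mt+, 7.20, 6.49 and 5.87 in wt+/mt-, and 4.83, 5.55 and 5.28 in wt+/mt+. Its wt+/mt- arrays lay above the other 9, and the rise against wt+/mt+ of 1.30 was not called (SE 0.27, adjusted p = 0.0603). Nor was its interaction of -1.39 (SE 0.38, limma adjusted p = 0.133). Over the 12 arrays these sets followed the leading one with Pearson's r of 0.98 and 0.91, as a description of arrays that share their genotypes.

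The level of Grk3 moved with the actin ratio within wt+/mt-, where replicate 1 had the highest actin ratio and the highest value on all 3 Grk3 sets. With the actin ratio as a covariate, the leading set in wt+/mt- against wt+/mt+ was 1.76 (adjusted p = 0.158), and with only wt+/mt- replicate 3, whose actin ratio was 1.07, it was 1.75 (adjusted p = 0.447). How far RNA integrity enters these values was not tested further. The call was also lost when any 1 of 6 arrays was left out (wt+/mt- replicates 1 and 2, wt-/mt+ replicate 2, wt+/mt+ replicates 1, 2 and 3), with values between 1.77 and 2.20 and adjusted p between 0.0505 and 0.0967. In wt-/mt+ against wt+/mt- the same held for 7 arrays (wt-/mt+ replicates 1, 2 and 3, wt+/mt- replicates 1 and 2, wt+/mt+ replicates 2 and 3), at -2.14 to -1.77 with adjusted p between 0.054 and 0.222. The difference between wt-/mt- and wt+/mt- was called under all 21 alternatives tried, between -2.90 and -2.35.

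**Figure D2:**
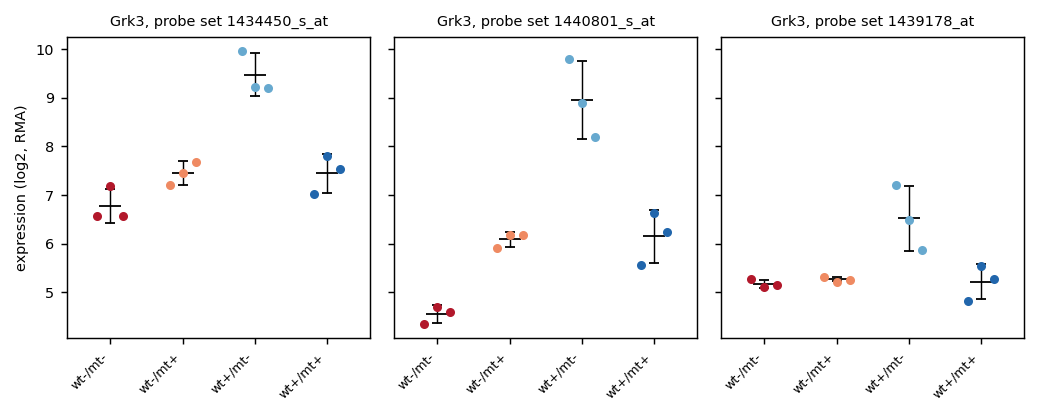
Log2 expression (vertical axis) of the 3 Grk3 probe sets in wt-/mt-, wt-/mt+, wt+/mt- and wt+/mt+ (horizontal axis), with points for arrays and bars for mean and SD (n = 3). On each set the wt+/mt- arrays lie above the other 9, and on the second set the wt-/mt- arrays, at 4.35 to 4.70, lie below them.

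The genes most like Grk3 over the 12 arrays, by Pearson's r of leading probe sets among 18192 genes, were Wdr47 (0.961), Bves (0.923), Papln (0.921), Cdyl2 (0.919) and Atg4d (0.915). They share the genotypes, and the actin ratio, of the same arrays. Cdyl2, which encodes a chromodomain protein, had the widest span of the 5, with means of 4.88 in wt-/mt- cells, 6.00 in wt-/mt+ cells, 9.99 in wt+/mt- cells and 7.16 in wt+/mt+ cells. Atg4d, a protease of autophagy, spanned only 9.00 to 9.19, so a high r here does not mean a wide change.

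Grk6, the other receptor kinase of the group, was higher without any Foxo1. Its leading probe set read 11.91, 11.12 and 11.65 in wt-/mt-, 10.53, 10.34 and 10.36 in wt-/mt+, 10.72, 10.53 and 10.67 in wt+/mt-, and 10.63, 10.55 and 10.50 in wt+/mt+. All 3 wt-/mt- arrays lay above the other 9, which spanned 10.34 to 10.72. Grk6 rose by 1.00 against wt+/mt+ (SE 0.16, limma adjusted p = 0.00328), a 2.00-fold difference, by 1.15 against wt-/mt+ (SE 0.16, adjusted p = 0.00144) and by 0.92 against wt+/mt- (SE 0.16, adjusted p = 0.00774). The second Grk6 set gave 1.24 (SE 0.15, adjusted p = 0.000607), 1.16 and 0.93 for the same comparisons, all called. The dim remaining set had means of 6.33 ± 0.13 in wt-/mt- and 5.95 ± 0.20 in wt+/mt+, and was not called. The interaction of both losses was 1.08 (SE 0.23, adjusted p = 0.0526) and was called without wt-/mt- replicate 1 or replicate 2, at 0.90 to 1.30. The call against wt+/mt- ended with the actin ratio as a covariate (0.97, adjusted p = 0.0896) and without both wt+/mt- arrays of high actin ratio (0.89, adjusted p = 0.276).

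Of 32851 promoter windows in RefSeq (250 bases before to 50 after a start, GRCm38.p6), 12 belonged to 7 of the 10 genes. Grk3, Arrb2 and Rgs1 had no window, so their promoters were not searched. The forkhead consensus GTAAACA, searched on both strands, was present in 3.65% of all windows and, among the members, in those of Grk6. It is shown because forkhead factors are known to bind such letters. The 30 bases lie at chr13:55445271-55445300 (GRCm38.p6, plus strand), before the annotated starts of Grk6, with the match in capitals. A match is a description of the sequence and shows no binding.
Grk6: gactgagccaaGTAAACAgagggcggggcg

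Arrb2, which encodes beta-arrestin 2, was likewise highest in wt-/mt-, by a smaller difference than Grk6. It read 9.95, 9.82 and 9.36 in wt-/mt-, 8.98, 8.99 and 8.84 in wt-/mt+, 9.00, 9.06 and 9.43 in wt+/mt-, and 8.89, 8.97 and 8.83 in wt+/mt+. The wt-/mt- arrays lay above those of wt-/mt+ and wt+/mt+ and overlapped with wt+/mt-, through its replicate 3. Arrb2 rose by 0.81 against wt+/mt+ (SE 0.15, limma adjusted p = 0.00703) and by 0.77 against wt-/mt+ (SE 0.15, adjusted p = 0.00983). Against wt+/mt- the difference was 0.54 (SE 0.15, adjusted p = 0.0638), which did not pass, although the second probe set did with 0.60 (SE 0.16, adjusted p = 0.0481) on arrays that also overlapped. The leading set was called too, at 0.67 to 0.72, when replicate 3 of wt-/mt- or of wt+/mt- was left out.

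**Figure D3:**
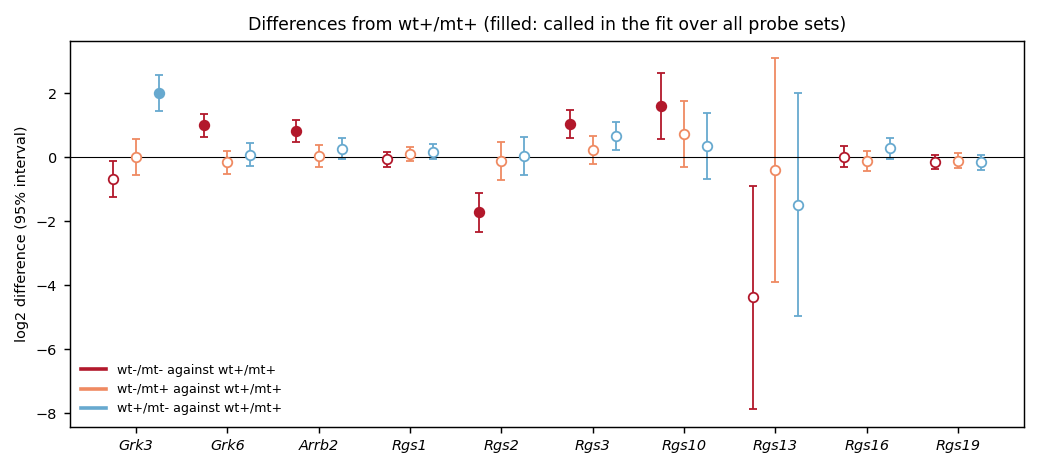
Log2 differences (vertical axis) of wt-/mt-, wt-/mt+ and wt+/mt- from wt+/mt+ for the leading probe set of each gene (horizontal axis), with 95% intervals from limma and filled points for calls over all probe sets. Grk6, Arrb2, Rgs3, Rgs10 and Rgs2 are called in wt-/mt-, Grk3 in wt+/mt- and none of the 10 in wt-/mt+, and the intervals of Rgs13 are the widest.

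Rgs2, an RGS protein known for acting on the Gq class of alpha subunits, fell without any Foxo1. It read 10.37, 11.38 and 10.40 in wt-/mt-, 12.28, 12.32 and 12.35 in wt-/mt+, 12.53, 12.92 and 11.97 in wt+/mt-, and 12.23, 12.53 and 12.56 in wt+/mt+. The 3 wt-/mt- arrays lay below all 9 others, with replicate 2 nearest to them. Rgs2 fell by 1.72 against wt+/mt+ (SE 0.27, limma adjusted p = 0.00287), by 1.60 against wt-/mt+ (SE 0.27, adjusted p = 0.0042) and by 1.76 against wt+/mt- (SE 0.27, adjusted p = 0.00422). The next brighter Rgs2 sets gave -1.53 and -1.63 against wt+/mt+, both called, and the dim remaining set was called only against wt+/mt- (-0.61, adjusted p = 0.0176). Against wt+/mt-, the leading set was -1.46 with the actin ratio as a covariate (adjusted p = 0.103) and -1.25 without both wt+/mt- arrays of high ratio (adjusted p = 0.265), neither called. The difference from wt+/mt+ was called under all 21 alternatives, between -2.05 and -1.55. The interaction was -1.64 (SE 0.38, adjusted p = 0.0749), not called, and it was called without wt+/mt- replicate 3 or wt-/mt- replicate 2, at -1.97 to -1.89.

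Over all members, wt-/mt- against wt-/mt+ called 5 of 24 probe sets higher (5.14% of all) and 5 lower (5.88% of all), and wt-/mt- against wt+/mt- called 3 higher (2.42% of all) and 7 lower (3.41% of all). The lower ones in wt-/mt- against wt+/mt- were the 3 sets of Grk3 and the 4 of Rgs2. These comparisons share the wt-/mt- arrays. Without wt-/mt+ replicate 2, wt-/mt- against wt-/mt+ called 6 of the 24 instead of 10, and 2024 of all probe sets instead of 4961.

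Rgs13, a small RGS protein characteristic of germinal center B cells, was even between the arrays with both alleles and the least even member without any. Its single probe set read 13.13, 9.01 and 4.00 in wt-/mt-, 13.40, 12.49 and 12.19 in wt-/mt+, 10.88, 11.83 and 12.11 in wt+/mt-, and 13.05, 13.10 and 13.12 in wt+/mt+. Replicate 1 of wt-/mt- was at the level of wt+/mt+, replicate 2 lay below all arrays with an allele, and replicate 3 lay lower still. The range of 9.13 over the 3 wt-/mt- arrays was matched or passed by 1 of 45037 probe sets, Rgs13 itself, and the median range was 0.35. Arrays read the RNA of many cells together, so fewer cells with the transcript and less of it per cell cannot be told apart.

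With that spread, no difference of Rgs13 was called. It was -4.38 for wt-/mt- against wt+/mt+ (SE 1.59, limma adjusted p = 0.0870), with a 95% interval from -7.87 to -0.89. Without wt-/mt- replicate 1 it was -6.59 and called (adjusted p = 0.00252), and so were the differences from wt-/mt+ (-6.19) and wt+/mt- (-5.10). Without replicate 3 of wt-/mt- the same differences were -2.02 from wt+/mt+, -1.63 from wt-/mt+ and -0.54 from wt+/mt-, none of them called (limma adjusted p = 0.144, 0.260 and 0.812). The 3 wt+/mt- arrays lay below those of wt+/mt+ and of wt-/mt+, with a difference of -1.48 from wt+/mt+ (SE 1.59, adjusted p = 0.691) that was likewise not called under the shared spread.

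Germinal center markers stood in the same order on the wt-/mt- arrays. For all 6 listed markers with a named probe set, replicate 1 was highest and replicate 3 lowest, as were 18.5% of 11468 genes above the array median. Mybl1, a MYB family factor of germinal center B cells, read 10.78, 8.63 and 6.79 in wt-/mt-, against 10.80, 10.76 and 10.88 in wt+/mt+. Fas, a death receptor, read 9.88, 7.96 and 7.08 in wt-/mt-, against 8.91, 9.13 and 9.30 in wt+/mt+. Bcl6, the germinal center repressor, read 13.21, 12.53 and 12.26 in wt-/mt-, against 13.33, 13.48 and 13.27 in wt+/mt+, and Mef2b, a MADS-box factor, was above its wt+/mt+ arrays on all 3 (11.23, 9.98 and 9.94, against 8.15, 8.16 and 8.35). Chromosome 1, which carries Rgs13, had medians of -0.10, 0.00 and 0.05 relative to wt+/mt+ on the 3 wt-/mt- arrays. What sets the 3 arrays apart was not tested.

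**Figure D4:**
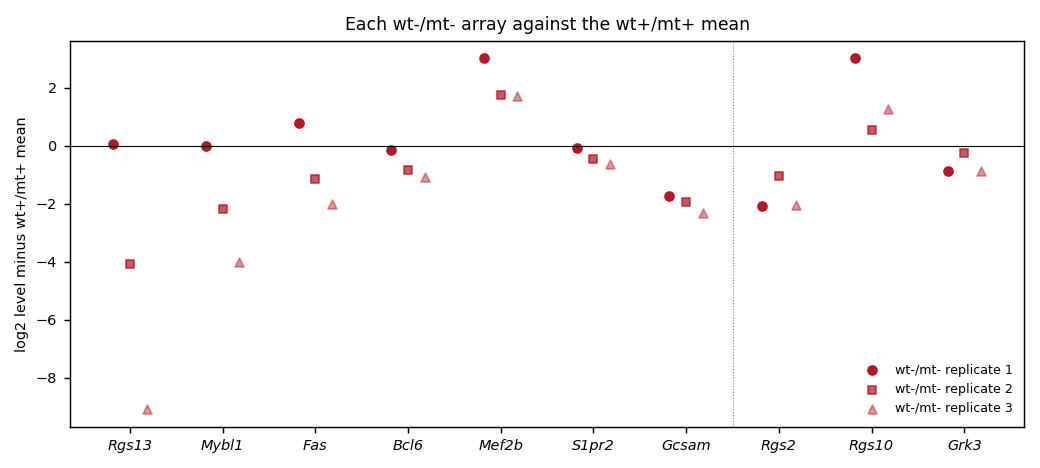
Log2 level of each wt-/mt- array minus the wt+/mt+ mean (vertical axis) for Rgs13, the 6 germinal center markers left of the dotted line, and Rgs2, Rgs10 and Grk3 right of it. Replicate 1 (circle) is highest and replicate 3 (triangle) lowest for Rgs13 and for the 6 markers, whereas Rgs2 and Grk3 have replicate 2 (square) as the highest array.

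Rgs2 and Rgs13 are neighbours on chromosome 1 in GRCm38.p6, with Rgs1 next to Rgs13. Their values did not move alike over the wt-/mt- arrays, and Rgs1 was dim and not called in any comparison. Relative to the wt+/mt+ mean, the wt-/mt- arrays stood at -2.07, -1.06 and -2.04 for Rgs2, at 0.04, -4.08 and -9.09 for Rgs13, and at 0.14, -0.17 and -0.15 for Rgs1. Replicate 1, with Rgs13 at the wt+/mt+ level, and replicate 3, with the lowest Rgs13, thus had nearly the same Rgs2 value. The 250 bases before each annotated start are shown because these adjacent genes had different patterns. They lie at chr1:144004150-144004399 for Rgs2 and chr1:144177373-144177622 for Rgs13 (RefSeq, GRCm38.p6, minus strand), and their G and C content was 72.4% for Rgs2 and 36.0% for Rgs13. The forkhead consensus shown for Grk6 was not found in either on either strand. Nor were the variant CAAAACA, present in 6.28% of all windows, or the TATA box letters TATAAA, present in 13.6%, so no letters are in capitals. Other spellings of a forkhead site were not searched.
Rgs2: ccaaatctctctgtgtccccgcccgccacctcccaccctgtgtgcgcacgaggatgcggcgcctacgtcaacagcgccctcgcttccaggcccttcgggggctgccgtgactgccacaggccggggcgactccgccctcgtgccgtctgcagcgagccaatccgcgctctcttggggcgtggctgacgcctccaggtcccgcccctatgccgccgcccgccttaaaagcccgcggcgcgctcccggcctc
Rgs13: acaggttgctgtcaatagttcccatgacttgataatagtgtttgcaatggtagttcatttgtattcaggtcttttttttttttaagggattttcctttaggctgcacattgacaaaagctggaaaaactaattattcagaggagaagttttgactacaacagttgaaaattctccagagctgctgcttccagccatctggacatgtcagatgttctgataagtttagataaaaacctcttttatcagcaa

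The genes most like Rgs13 over the 12 arrays were Dynlt3 (Pearson's r 0.978), Rasgrp2 (0.977), Sim1, Ccdc167 and Pxk (0.975 each). Over the 9 arrays with an allele left, r was 0.69 for Dynlt3, 0.86 for Rasgrp2, 0.63 for Sim1, 0.93 for Ccdc167 and 0.72 for Pxk. The values near 1 therefore rest in part on the 3 wt-/mt- arrays, most so for Sim1 and least so for Ccdc167. Rasgrp2, an exchange factor for the small GTPase Rap1, had means of 7.36 in wt-/mt- and 9.14 in wt+/mt+.

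Rgs3 and Rgs10 rose in wt-/mt- against wt+/mt+, on arrays that were less even. Rgs3, which is made in several isoforms, read 8.28, 7.99 and 8.71 in wt-/mt-, 7.59, 7.43 and 7.53 in wt-/mt+, 8.37, 7.95 and 7.56 in wt+/mt-, and 7.36, 7.29 and 7.21 in wt+/mt+. The wt-/mt- arrays lay above those of wt-/mt+ and wt+/mt+ but not above those of wt+/mt-. Rgs3 rose by 1.04 against wt+/mt+ (SE 0.20, limma adjusted p = 0.00791) and by 0.81 against wt-/mt+ (SE 0.20, adjusted p = 0.0272). The second call ended without any 1 of wt-/mt+ replicates 1, 2 and 3 and wt-/mt- replicate 3, at 0.62 to 0.84. In wt+/mt- against wt+/mt+ the difference was 0.67 (SE 0.20, adjusted p = 0.130), called with 1 weight per genotype (adjusted p = 0.0407). The other 3 Rgs3 probe sets were not called in any comparison, and their genotype means lay between 5.91 and 7.13.

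Rgs10, a small RGS protein that acts on the Gi class, read 10.10, 7.61 and 8.35 in wt-/mt-, 8.19, 7.63 and 7.62 in wt-/mt+, 7.45, 7.24 and 7.68 in wt+/mt-, and 6.80, 7.26 and 7.22 in wt+/mt+. All 3 wt-/mt- arrays and all 3 wt-/mt+ arrays lay above wt+/mt+, and replicate 1 of wt-/mt- lay far above the rest. Its range of 2.49 in wt-/mt- was reached by 0.979% of all probe sets. Rgs10 rose by 1.59 in wt-/mt- against wt+/mt+ (SE 0.47, limma adjusted p = 0.0442), a call made under 8 of 21 alternatives. It ended without any 1 of the 9 arrays that still had an allele, at 1.45 to 1.68 (adjusted p 0.0572 to 0.137). In wt-/mt+ against wt+/mt+ the difference was 0.72 (SE 0.47, adjusted p = 1.00), with an interval from -0.31 to 1.75. Without wt-/mt- replicate 2, Rgs10 was also called against wt-/mt+ (1.41, adjusted p = 0.0372) and wt+/mt- (1.77, adjusted p = 0.0166). Without replicate 1 of wt-/mt- these differences were 0.17 from wt-/mt+ and 0.52 from wt+/mt-, neither called (limma adjusted p = 0.712 and 0.252), and the difference from wt+/mt+ was 0.89 (adjusted p = 0.0351), against 2.13 without replicate 2 (adjusted p = 0.00571).

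Rgs19, Rgs1 and Rgs16 made up the rest. Rgs19, also called GAIP and known for acting on the Gi class, was bright and even, with means of 11.68 ± 0.06 for wt-/mt-, 11.72 ± 0.20 for wt-/mt+, 11.67 ± 0.02 for wt+/mt- and 11.83 ± 0.07 for wt+/mt+ (SD, n = 3 each). The leading set was called in none of the 7 comparisons by limma, with or without weights, and its interval for wt-/mt- against wt+/mt+ ran from -0.37 to 0.08. Its second set, of a kind (suffix x_at) that can also bind other transcripts, was lower in wt-/mt- than in wt+/mt+ by a difference of -0.48 (SE 0.11, adjusted p = 0.0151), but was not called with 1 weight per genotype (adjusted p = 0.0701). On that set the values were 10.61, 10.51 and 10.62 in wt-/mt-, 10.95, 11.18 and 10.81 in wt-/mt+, 10.59, 10.43 and 10.67 in wt+/mt-, and 11.09, 11.11 and 10.98 in wt+/mt+.

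Rgs1, the other known brake on chemokine signalling in B cells, lay below the array's median on all 12 arrays, between 5.08 and 5.51. The 3 Rgs16 probe sets, whose gene is known as an activation-induced RGS, lay between 4.09 and 5.74, also below the median on all 12. Neither gene was called in any of the 7 comparisons by limma or with 1 weight per genotype. For wt-/mt- against wt+/mt+ the differences were -0.06 for Rgs1, with an interval from -0.29 to 0.17, and 0.02 for the leading Rgs16 set, from -0.30 to 0.34. Signals this dim may lie at the array's background, so a difference in a transcript below detection would not be seen here.

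Over all probe sets, wt-/mt- against wt+/mt+ called 7.91% higher and 6.26% lower. Among other genes of the pathway, led likewise by the brightest probe set, it called 1 of 11 further GRK and arrestin genes higher and 0 lower. That gene was Grk5, a further receptor kinase, with 7.28, 7.58 and 9.01 in wt-/mt- and 5.73, 6.08 and 6.18 in wt+/mt+. It rose by 1.96 (SE 0.36, limma adjusted p = 0.0059), and its wt-/mt- arrays lay above the other 9. Of 14 further RGS genes 1 was higher and 0 lower. That 1, Rgs5 (0.38, limma adjusted p = 0.0136 without weights), was dim and was not called with 1 weight per genotype. Of 25 G protein subunits 4 were higher and 4 lower, led by Gng12 (1.06, SE 0.22), a gamma subunit, and by the gamma subunits Gng10 (-0.90, SE 0.19) and Gng2 (-0.88, SE 0.12) and the beta subunit Gnb4 (-0.74, SE 0.18).

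Of 24 receptors 3 were higher and 2 lower in wt-/mt- against wt+/mt+, where 7.91% of all probe sets were called higher and 6.26% lower. Cxcr4, the receptor for the chemokine CXCL12 and a known substrate of GRKs, read 7.78, 7.75 and 9.69 in wt-/mt-, 12.17, 11.88 and 11.47 in wt-/mt+, 11.41, 11.44 and 11.72 in wt+/mt-, and 12.00, 12.08 and 12.20 in wt+/mt+. The wt-/mt- arrays lay below all others. Those of Grk3 did so on its second probe set but not on its leading set, and Grk3 was highest in wt+/mt-. S1pr1, a receptor for sphingosine 1-phosphate, fell by 1.49 (SE 0.23, limma adjusted p = 0.00274), while Cnr2, the cannabinoid receptor of lymphocytes, rose by 1.34 (SE 0.38, adjusted p = 0.0383) and P2ry10, a lysophospholipid receptor, by 1.31 (SE 0.35, adjusted p = 0.0297). Of 16 other regulators and effectors 2 were higher, Gpsm2 (0.76, SE 0.12) and Plcb3 (0.64, SE 0.17), and 1 lower, the chaperone of alpha subunits Ric8a (-0.71, SE 0.10). The lists were drawn up with earlier results of these arrays known, and their medians lay between -0.08 and 0.11, against 0.06 over all probe sets.

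In wt-/mt-, the summed level of the 7 myeloid markers was 9.21 to 10.03 (log2), against 8.96 to 9.12 in wt+/mt+ and 9.14 to 9.47 in wt+/mt-. Against wt+/mt+, 1 of the 7, Cd68, was called higher (1.93, SE 0.53, limma adjusted p = 0.0338), where 7.91% of all probe sets were. The summed level of the 6 B cell markers was 15.31 to 15.76, against 15.98 to 16.03 in wt+/mt+, and 3 of the 6 were called lower, where 6.26% of all probe sets were. For the 5 plasma cell markers it was 13.57 to 14.29, against 14.92 to 15.04 in wt+/mt+, with 1 called lower. Of 6 germinal center markers 1 was called higher and 2 lower. Of 5 stromal and endothelial and of 2 erythroid markers 1 each was called higher, and of 5 T cell markers 0 in either direction. The part of these shifts in the differences of Grk6, Arrb2, Rgs2, Rgs3, Rgs10 and Grk5 was not tested.

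**Figure D5:**
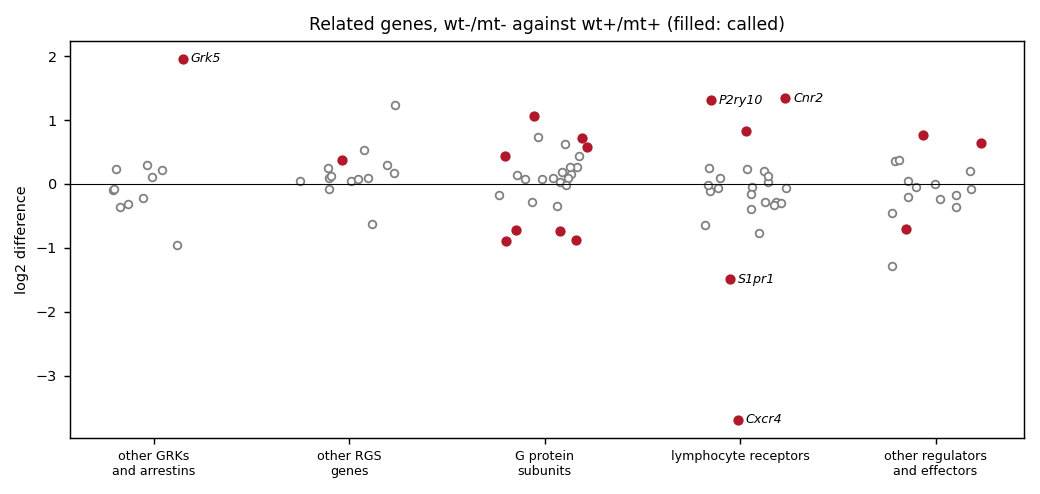
Log2 differences (vertical axis) between wt-/mt- and wt+/mt+ for the leading probe sets of related genes outside the 10, by list (horizontal axis), with filled points for calls and names for called differences beyond 1.2. Cxcr4, at -3.69, lies lowest and Grk5, at 1.96, highest among the genes shown.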

How the data were processed

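The authors deposited log2 expression values per probe set, and the submitters' processing notes name RMA without a version. This method subtracts background, normalizes the arrays to each other and summarises probes, so shifts shared by most genes are largely removed. The log base was taken from RMA's usual output and the range of the values, 3.09 to 15.57. Of 45101 probe sets, 64 controls were left out, and 34945 of the other 45037 had 1 gene in GEO's platform annotation, 932 had several and 9160 had none listed. Symbols were updated through RefSeq (GRCm38.p6). limma 3.58.1 in R 4.3.3 fitted 1 mean per genotype over all probe sets and 12 arrays, followed by eBayes and Benjamini-Hochberg adjustment, called under 0.05. No dim probe set was removed, so all 24 member probe sets were tested, and 8 of 10 genes would pass a filter at the array median. The fit was tested on simulated data. The members, gene lists and named-gene rule (the 10 genes, up to 4 called genes per list, and the 5 genes most like the 2 widest-ranging members) were chosen with earlier results of these data known. Array precision is limited by 3 arrays per genotype.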

Additional observations from a re-analysis of the deposited data

Results flagged for a closer look

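Grk3 drew attention because the test of the interaction was passed: loss of the T24P allele went with a higher Grk3 level beside wild-type Foxo1 and with a level that was not higher without it, a contrast of -2.70 (log2, limma adjusted p = 0.00667). It was called with each of the 12 arrays left out in turn, between -2.90 and -2.44, and was -2.43 and not called without both wt+/mt- arrays of high actin ratio (adjusted p = 0.0857).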

How the results depend on the processing

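No called difference of a leading probe set changed its sign under the 21 alternatives of each comparison. No paired analysis was possible because array numbers run on from 1 genotype to the next and none is shared. With 1 probe set per gene, which leaves 8 member genes to call, 5 instead of 11 were called in wt-/mt- against wt+/mt+, 4 instead of 10 in wt-/mt- against wt-/mt+, 4 instead of 10 in wt-/mt- against wt+/mt-, and 1 instead of 2 both in wt+/mt- against wt+/mt+ and in wt-/mt+ against wt+/mt-. Of all 11468 genes kept there, 2535, 2382, 1670, 21 and 10 were called, in the same order. With 1 weight per genotype, wt+/mt- against wt+/mt+ had 6 and the interaction 8 instead of 2, and the filter on dim probe sets gave 4 for the interaction. In all, 1759, 704 and 626 probe sets were called there, instead of 221 for wt+/mt- against wt+/mt+ and 486 for the interaction. With the actin ratio as a covariate, wt+/mt- against wt+/mt+ had 1, wt-/mt- against wt+/mt- had 2 and wt-/mt+ against wt+/mt- had 0, and calls over all probe sets were 9 instead of 221, 404 instead of 2627 and 1 instead of 25. Without both wt+/mt- arrays of high actin ratio, an alternative known from earlier results, the member counts were 0, 2 and 0, and 1 for the interaction, with 7, 145, 2 and 46 over all probe sets. There the only wt+/mt- array kept is assumed to vary like the other genotypes. Each array left out in turn gave 8 to 12 calls in wt-/mt- against wt+/mt+, 0 in wt-/mt+ against wt+/mt+, 0 to 4 in wt+/mt- against wt+/mt+, 6 to 11 in wt-/mt- against wt-/mt+, 7 to 11 in wt-/mt- against wt+/mt-, 0 to 3 in wt-/mt+ against wt+/mt- and 2 to 7 for the interaction. Over all probe sets, in the same order, calls ran from 3134 to 7800, 0 to 8, 8 to 599 and 2024 to 6418. For the last 3 they ran from 987 to 4910, 0 to 352 and 133 to 1820. Calls for the interaction numbered 7 without wt-/mt- replicate 2, 5 without wt-/mt- replicate 1, and 4 without wt-/mt- replicate 3 or wt+/mt- replicate 3, and wt+/mt- against wt+/mt+ had 4 without wt-/mt- replicate 3. In the same order, all probe sets had 1820, 1203, 1150 and 451 calls for the interaction, instead of 486. For wt+/mt- against wt+/mt+ all probe sets had 599, instead of 221. The losses of calls in wt+/mt- against wt+/mt+ and in wt-/mt+ against wt+/mt- came without the arrays named beside Grk3. The causes of the other changes were not tested. Over all probe sets, 1 weight per genotype called 3349 instead of 6381 in wt-/mt- against wt+/mt+, 1759 instead of 221 in wt+/mt- against wt+/mt+, 1295 instead of 2627 in wt-/mt- against wt+/mt- and 1325 instead of 25 in wt-/mt+ against wt+/mt-.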

Other observations

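Around Rgs2 on chromosome 1, Ro60, which encodes an RNA-binding autoantigen, read 7.88, 9.59 and 7.57 in wt-/mt- and 7.31, 7.70 and 7.53 in wt+/mt+. Rgs18, another RGS gene beyond Rgs1, read 8.11, 9.35 and 7.76 in wt-/mt- and 6.96, 7.56 and 7.00 in wt+/mt+. In both, as in Rgs2, Glrx2 and Uchl5 nearby, replicate 2 of wt-/mt- was the highest of its genotype, while Rgs13, which lies between Rgs2 and Rgs18, had its highest value in replicate 1. The dim Rgs1, next to Rgs13, was also highest in replicate 1 (5.39, 5.08 and 5.10 in wt-/mt-). Brinp3, dim and beyond Rgs18, was highest in replicate 3 (3.90, 3.75 and 3.96 in wt-/mt-). These genes were picked out after their values were seen, and no test was made.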
